A study of Brassica napus with 6 samples.

Results

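In the oilseed rape hybrid HZ62 (Brassica napus), 77 genes were read in seedling and in silique and had no read in flower bud. They were chosen by their measured levels, as the genes of the deposited normalized table with a value of at least 1 in both seedling and both silique libraries and a value of exactly 0 in both flower bud libraries, and they were 77 of 80932 genes listed, or 0.0951%. The study profiled polyadenylated RNA by sequencing in 3 tissues of the hybrid, with 2 libraries each. The tissues were seedlings 2 weeks old, siliques 3 to 5 cm long and flower buds under 2 mm. All plants carried the genotype label WT and were grown in 16 h days at 22 °C and 8 h nights at 18 °C. The tissue field of the bud samples reads "flower bug", and their titles name flower. The labels do not say how many plants went into a library or whether replicate libraries had separate plants as their source, and the p-values below measure the spread between these libraries, which may be technical.

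A seedling carries young leaves, a shoot and roots. A silique is the fruit of the cabbage family, a pod with a green, photosynthetic wall around the developing seeds, whereas a bud of this size still encloses growing floral organs. In tissue samples such as these, fewer cells of a type and less RNA per cell cannot be told apart. Oilseed rape is an allotetraploid with an A subgenome and a C subgenome, so that many genes are present as closely similar copies, and reads of such copies can be split between them. The identifiers, which begin with ZS11, are not paired with gene names in the files, and 0 of 95143 identifiers matched the RefSeq gene table of the Da-Ae assembly. The functions of the 77 genes are therefore not described, and the tissue labels were not checked against marker genes.

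Depth set what a value of 1 or of 0 stood for. Whole reads recovered from the normalized table numbered 24110359 and 3973408 in the seedling libraries, 12614212 and 12543622 in the flower bud libraries, and 12506762 and 10359099 in the silique libraries. A value of at least 1 thus needed 27 reads in seedling replicate 1 but only 4 in seedling replicate 2, and 13 and 11 in the silique libraries. Of the 77 genes, 11 stood at exactly 4 reads in seedling replicate 2 and 21 were under 10 reads there. Between 83.0% and 90.0% of the nonzero counts of a library were even numbers, and 92.2% of the counts of the 77 genes in seedling and silique were even; the cause was not tested. A step of 2 reads was therefore taken as the unit of counting. On that basis 4 reads in seedling replicate 2 carried an exact 95% Poisson interval of 0.132 to 3.94 in normalized value, which covers counting error only, so membership rested on few reads for these genes.

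In silique most of the 77 genes lay at the low end of expression, whereas in seedling their levels spread more widely. Their values ranged from 1.05 to 277 in seedling replicate 1 (median 4.22), from 1.09 to 743 in seedling replicate 2 (median 3.82), from 1.14 to 34.2 in silique replicate 1 (median 2.11) and from 1.18 to 31.5 in silique replicate 2 (median 2.17). In silique 67 of them averaged under 5, and 34 averaged under 2. In seedling 42 averaged under 5, 24 averaged at least 10, and 5 averaged at least 50. The other 37228 genes with a value of at least 1 in all 4 of these libraries had a median of 9.87 in seedling and 12.3 in silique. Per kb of gene span, the 53 members with a known span had a median of 6.21 CPM (counts scaled to library size) in seedling and 1.78 in silique, against 6.03 and 5.94 for 23973 other such genes. On this scale per length, the members were near the level of the other genes in seedling and below it in silique. This was not tested.

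**Figure D1:**
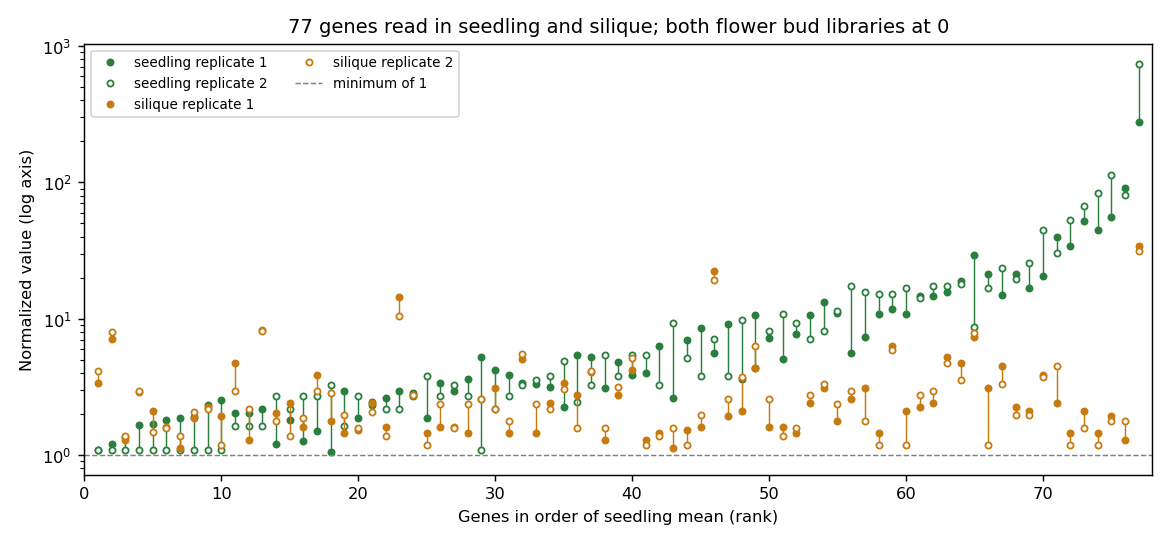
Normalized value (log axis) of each of the 77 genes in seedling replicates 1 and 2 and silique replicates 1 and 2, with genes ordered by their seedling mean, lines joining the replicates of each tissue and a dashed line at the minimum of 1. The silique values mostly stay under 5 along the whole order, while seedling values reach 743, and both flower bud libraries, at 0 for every gene, cannot be drawn on a log axis.

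The genes took a small part of each library, and 1 gene carried much of it. Together they held 0.115% and 0.153% of the reads of the seedling libraries and 0.0261% and 0.0252% of those of the silique libraries. ZS11A07G023900 (chromosome A7, 19674762 to 19678071, plus strand, 3310 bp) alone gave 26.4% and 44.6% of the members' summed value in seedling and 12.9% and 12.3% in silique. Without it the summed values were 771 and 921 in seedling and 231 and 225 in silique, so seedling stayed above silique. The 2 libraries of a tissue ranked the genes alike, with Spearman's rho across the 77 genes of 0.853 in seedling and 0.764 in silique; genes are not independent replicates and the choice of members shaped these values. The higher replicate exceeded the lower by a median of 1.51 times in seedling and 1.21 times in silique. It exceeded it by more than 2 times in 21 genes in seedling and in 1 gene in silique.

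The rule itself required no flower bud read at a silique value of at least 1, a value that took 13 reads in each flower bud library. The values that chose the genes are given here as a description, with no test. At its own silique level, the lowest member would have had 31.0 reads over both flower bud libraries, and the median member 53.4. For counting error alone, a count of 0 over these libraries allows a level of up to 3 steps of 2 reads, or a normalized value of 0.240. The genes were chosen for this 0, so their level in flower bud can lie above that limit. The rule's minimum of 1 is itself above the limit, so every member had to exceed it in both tissues. The seedling level exceeded the limit 4.55-fold for the lowest member, 18.0-fold for the median and 2126-fold for ZS11A07G023900. The silique level exceeded it 5.17-fold, 8.89-fold and 137-fold. For ZS11A07G023900 in seedling the figure was 1156-fold from replicate 1 alone and 3097-fold from replicate 2 alone. Of the 37305 genes with a value of at least 1 in all 4 seedling and silique libraries, 35777 (95.9%) also reached 1 in both flower bud libraries, 1451 (3.89%) had flower bud reads but stayed under 1 in at least 1 of them, and 77 (0.206%) had none. The genes without flower bud reads were not set apart from those with a few. No gene of this group had exactly 1 read over both flower bud libraries, 64 had 2, 2 had 3 and 77 had 4, and each even number from 2 to 40 held between 64 and 107 genes.

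**Figure D2:**
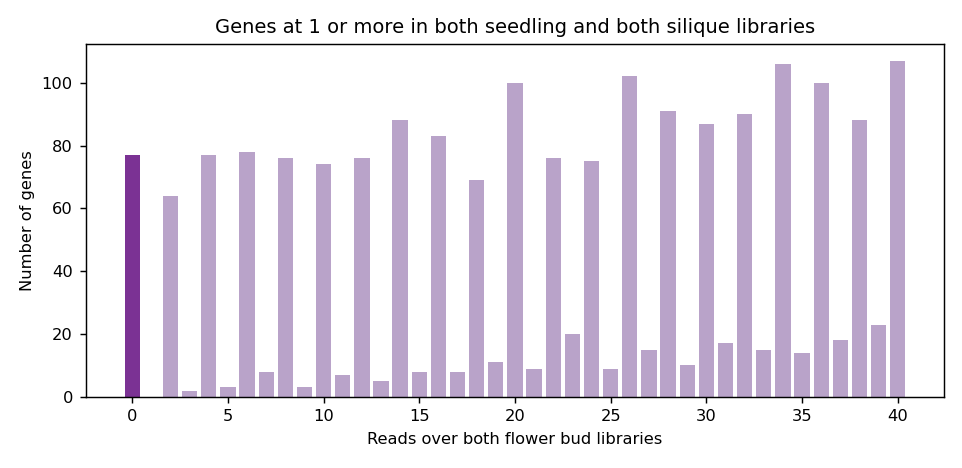
Number of genes (vertical axis) at each total of reads over both flower bud libraries (horizontal axis, 0 to 40), among genes with a value of at least 1 in both seedling and both silique libraries. The dark bar is the 77 genes at 0 reads, which is within the range of 64 to 107 of the bars at even numbers, while 205 genes in all lie at odd numbers and 1707 at even numbers above 0.

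Leaving each flower bud library out of the choice showed how far a 0 in 1 library went with a 0 in the other. From the other 5 libraries, 144 genes were chosen without flower bud replicate 1, and 77 of them (53.5%) also had 0 reads there. Those 77 are the members by definition, so only the number chosen could vary. The remaining 67 had between 2 and 14 reads, with a median of 4 and a highest normalized value of 1.12. Without flower bud replicate 2, 153 genes were chosen, 77 (50.3%) had 0 reads in it, and the other 76 had between 2 and 24 reads, up to a normalized value of 1.91. At most 2 reads were found in 75.7% and 71.2% of the genes, respectively. In the library not used in the choice, 2 of the 144 and 3 of the 153 genes reached a value of 1, the minimum used for seedling and silique, and a strict 0 was met in about as many genes as not. The same exercise with seedling or silique libraries gave 93 to 97 genes, of which 79.4% to 82.8% met the minimum in the left-out library. A minimum of 1 is a different criterion from a strict 0, so these percentages are not comparable with those for flower bud.

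**Figure D3:**
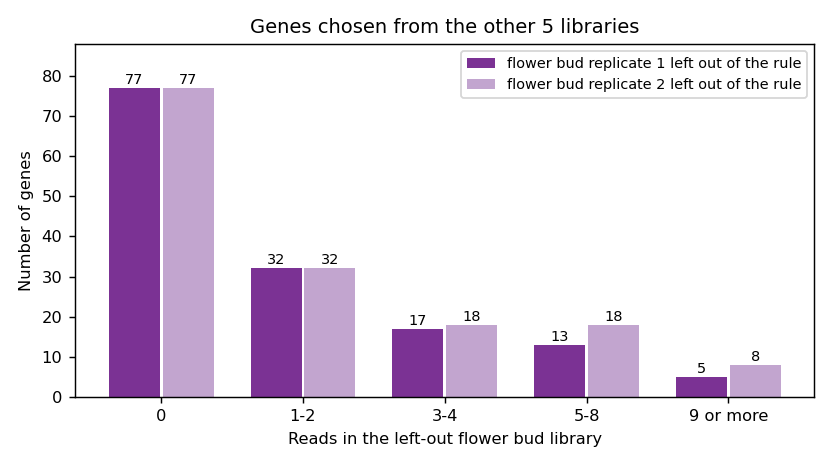
Number of genes (vertical axis) by their reads in the flower bud library that was left out of the rule (horizontal axis), for replicate 1 (dark) and replicate 2 (light). In both cases the genes at 0 reads are the 77 members, by definition. In each, 32 genes had 1 or 2 reads, while 5 and 8 genes had 9 or more.

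At the border of the rule, ZS11A05G012960 (chromosome A5, 7621594 to 7624101, minus strand, overlapping 1 other gene model) was the member with the lowest of all seedling and silique values. It stood at 1.05 and 3.28 in seedling and at 1.78 and 2.86 in silique. Just outside lay ZS11A03G022120 on chromosome A3, with 10.1 and 3.82 in seedling, 2.11 and 0.985 in silique and 0 in flower bud, which missed the minimum in silique replicate 2 only. Among the 64 genes with 2 flower bud reads, ZS11C04G011700 on chromosome C4, looked up after no gene with 1 read was found, had the highest minimum. Its values were 37.2 and 118 in seedling, 11.7 and 14.6 in silique, and 0 and 0.159 in flower bud. Only 1 member, ZS11A07G023900, exceeded this gene in each of the seedling and silique libraries.

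Silique against seedling was the comparison that the rule did not use, although the minimum of 1 in both tissues limits how far a member can differ. Most members that differed were lower in silique. With edgeR's quasi-likelihood test on the deposited counts, calls needed a difference of at least 2-fold and a p, adjusted by Benjamini-Hochberg over all genes tested, under 0.05. Of the 53 members in the count table, all 53 were tested and all passed the filter on low counts in both tissues. Of them 23 were lower in silique, or 43.4%, where 18% of all 34296 genes tested were called lower. Only 4 were higher, or 7.55%, where 16.2% of all genes were called higher, and without silique replicate 1 the number was 2. In either direction 34.2% of all genes were called, and of 23973 non-members at 1 or more in all 4 libraries 28.6% were called, 16.1% lower and 12.5% higher. The same test on the reads recovered for all chromosomes covered all 77 members, of which 36 were lower (46.8%, against 17.7% of 52918 genes tested), 5 were higher (6.49%, against 15.9%) and 36 were not called, where 33.6% of all genes were called in either direction. Among the 37228 non-members at 1 or more in all 4 libraries, 28% were called in this fit, 15.8% lower and 12.3% higher. The 53 members in both fits had the same call in each.

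The lower members ranged widely in size. On recovered reads their log2 fold changes ran from -6.15 to -1.42 with a median of -2.56. Their seedling means had a median of 13.7 and their silique means a median of 2.08. Of all members, 13 were lower by at least 8 times, and the share of all genes at that size is not given here. By normalized means, seedling was at least 5 times silique in 23.4% of members and 2.38% of the 37228 non-members at 1 or more in all 4 libraries. Silique was at least 5 times seedling in 1 member and in 2.15% of those non-members. The 5 higher members had log2 fold changes between 1.45 and 2.34, seedling means from 1.09 to 6.37 and silique means from 3.77 to 20.9. The 36 members without a call spanned -1.35 to 0.68. Of them 31 had a negative estimate, where the median estimate over all genes tested was 0.02. The approximate standard errors of these 36 had a median of 0.50 on the log2 scale, against 0.38 for the called members. A difference of 2-fold could therefore go uncalled at these counts. Lower members were found on both subgenomes, 20 of 38 on A and 16 of 38 on C. Of the 16 on C, 3 were in the count table. The shares of all A and all C genes called lower are not given here, so the subgenomes were not compared.

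**Figure D4:**
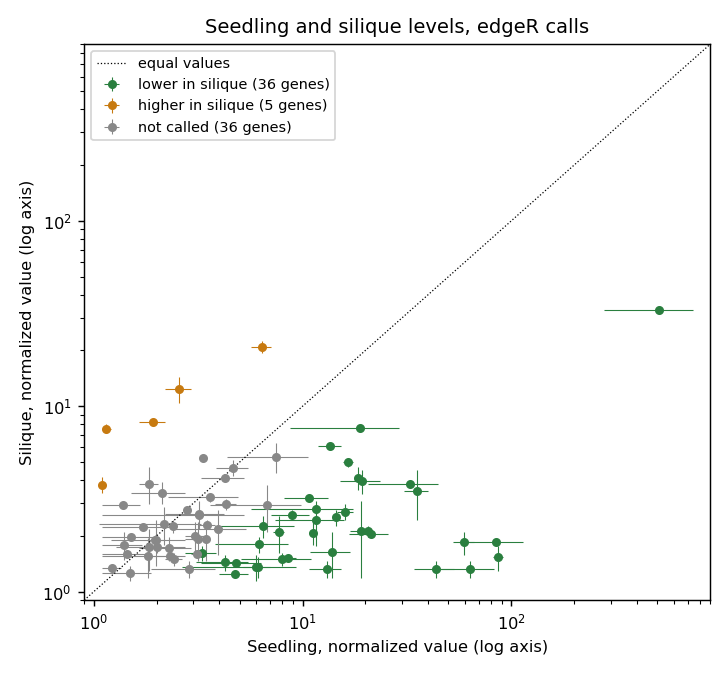
Silique against seedling mean normalized value of the 77 genes (both axes log), with bars from the lower to the higher replicate, coloured by edgeR call on recovered reads. The 36 genes called lower in silique spread to the right up to a seedling mean of 510, while the 5 called higher lie above the dotted line of equal values.

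ZS11A04G023120 (chromosome A4, 17859034 to 17862500, plus strand, 3467 bp) showed the largest fall among the members in the count table. Its normalized value was 44.4 in seedling replicate 1 and 83.0 in replicate 2, but 1.46 and 1.18 in the silique libraries and 0 in both flower bud libraries. Seedling and silique libraries did not overlap, and silique stood barely above the minimum of the rule. The log2 fold change was -5.86 (approximate SE 0.38, edgeR adjusted p = 6.28e-06), or 57.9-fold higher in seedling. The next was ZS11A07G023900, with 277 and 743 in seedling, 34.2 and 31.5 in silique and 0 in flower bud. Its seedling libraries lay far apart (510 ± 329, SD, n = 2), yet both were well above silique (32.9 ± 1.92). The log2 fold change was -4.27 (approximate SE 0.44, edgeR adjusted p = 9.50e-05), or 19.4-fold higher in seedling. Its size depended on the seedling library: it was -4.81 (28.0-fold) without seedling replicate 1 and -3.41 (10.6-fold) without seedling replicate 2, and the gene was called in both fits.

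Outside the count table, 4 more members on C chromosomes were also strongly skewed to seedling. One on chromosome C8 stood at 91.5 and 81.4 in seedling and at 1.30 and 1.77 in silique, with a log2 fold change of -6.15 on recovered reads (edgeR adjusted p = 5.71e-07). One on chromosome C9 had 56.2 and 114 in seedling and 1.95 and 1.77 in silique (log2 fold change -5.78). The remaining pair lay on chromosome C4. The first gene had 52.4 and 66.6 against 2.11 and 1.58 (log2 fold change -5.29). The other had 34.0 and 53.0 against 1.46 and 1.18 (log2 fold change -5.30). With ZS11A04G023120 these were the 5 members lower in silique by at least 32 times, and their silique values were at most 2.11. The share of all genes lower by at least 32 times is not given here.

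Of the members that rose, ZS11A08G009550 (chromosome A8, 9561771 to 9567124, plus strand, 5354 bp) had the largest change. It stood at 1.20 and 1.09 in seedling and at 7.14 and 7.98 in silique, and had no flower bud read. The log2 fold change was 2.33 (approximate SE 0.40, edgeR adjusted p = 0.00157), or 5.04-fold. ZS11A10G028260 (chromosome A10, 20441531 to 20448210, plus strand, 6680 bp) had 5.65 and 7.10 in seedling and 22.6 and 19.3 in silique, which made it the second highest member in silique by normalized value. Its log2 fold change was 1.45 (approximate SE 0.24, edgeR adjusted p = 0.00119). In both genes the silique libraries lay above both seedling libraries. The 4 risen members of the count table had a median span of 6017 bp, from 1349 to 8701 bp, against 1944 bp for the 23 that fell and 1664 bp for the 26 without a call, differences that were not tested.

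Other members were close to even between the tissues. ZS11UN2200, on an unplaced sequence (32010 to 32412, minus strand, 403 bp), had 1.69 and 1.09 in seedling and 2.11 and 1.48 in silique, with a log2 fold change of -0.08 (approximate SE 0.54, edgeR adjusted p = 0.929). ZS11C03G047840 (chromosome C3) had 1.92 and 1.09 in seedling and 1.87 and 2.07 in silique, with a log2 fold change of -0.10 (approximate SE 0.52, edgeR adjusted p = 0.904). At these errors a moderate difference in either direction was not detectable, and the sign of both estimates turned under other settings. Per kb of span, the strongest member in all 4 libraries was ZS11A07G023900, at 157 and 414 CPM per kb in seedling and 15.3 and 14.1 in silique. ZS11A06G025130 (chromosome A6, 18697858 to 18698747, plus strand, 890 bp) followed with an even 7.14 and 6.79 CPM per kb in seedling and 8.36 and 9.15 in silique (log2 fold change 0.31, approximate SE 0.36, edgeR adjusted p = 0.506). ZS11A02G044320 (chromosome A2, 32777866 to 32778722, minus strand, 857 bp) had 44.8 and 96.4 CPM per kb in seedling and 6.72 and 6.45 in silique, a fall in silique (log2 fold change -3.34, approximate SE 0.38, edgeR adjusted p = 0.000163).

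The skew to seedling was also found in genes with low but nonzero flower bud levels. By normalized value, both seedling libraries lay above both silique libraries in 45 of the 77 genes, both silique libraries lay above both seedling libraries in 9, and the libraries overlapped in 23. Among the 37228 non-members at 1 or more in all 4 libraries, the corresponding shares were 25.1% and 51.8%. For the members they were 58.4% and 11.7%. Among the 1451 genes with flower bud reads but under 1 in at least 1 flower bud library, they were 50.9% and 19.7%, and among the 35777 genes at 1 or more in both they were 24.1% and 53.1%. The members' silique values were low. Among the 8112 non-members at 1 or more in all 4 libraries with a silique mean under 5, the shares were 38.7% and 24.9%. These are nearer to the members' shares than those of all non-members. A cut on low silique values by itself favours seedling above silique, so this nearness cannot be read as a result. The part of low level in these shares was not tested. The deposited normalization set silique higher relative to seedling than the edgeR fit by 0.33 on the log2 scale, which raises the shares of genes higher in silique in all of these groups.

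**Figure D5:**
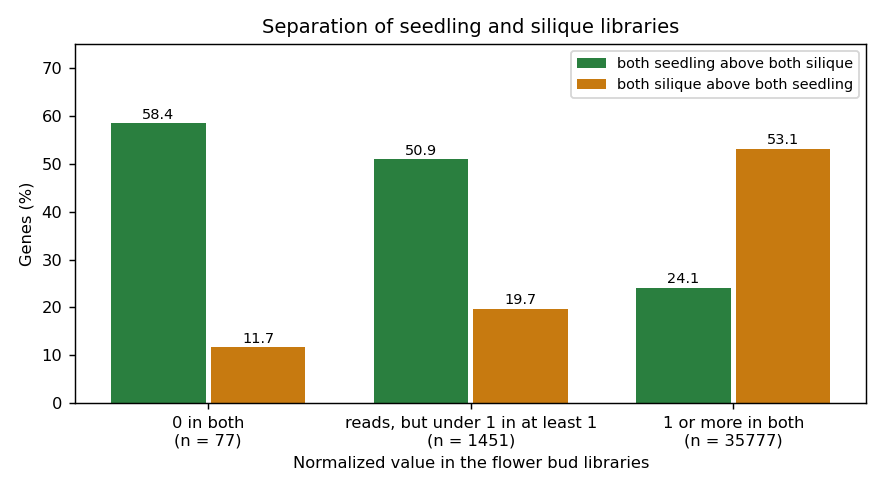
Share of genes (%) whose seedling libraries both lie above both silique libraries (green) or the reverse (orange), by flower bud level, among genes at 1 or more in both seedling and both silique libraries. The green bar is 58.4% for the 77 genes at 0 in flower bud, 50.9% for genes with low flower bud values and 24.1% for the rest.

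The members were spread over the whole genome. All 19 chromosomes held at least 1 member, with 38 in the A subgenome, 38 in the C subgenome and 1 on an unplaced sequence. A genes were thus 50% of the placed members, where they were 44.7% of the genes listed and 47.1% of the non-members at 1 or more in all 4 libraries. Relative to the genes listed per chromosome, the share was highest on A2 (8 members, 0.217%), A10 (5 members, 0.192%) and C4 (9 members, 0.169%), against 0.0951% over all genes. It was lowest on C8 (0.0216%), A1 (0.0279%) and A7 (0.0288%), with 1 member each. These shares rest on few members and were not tested. In the count table, 25 members lay on the plus and 28 on the minus strand.

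The 53 members with known positions were shorter and stood further from other gene models than other genes at 1 or more in all 4 libraries, as medians with no test. Their median span was 1801 bp, from 403 to 14692 bp, against 2889 bp, and against 1976 bp over all 65535 genes of the count table. The nearest gene model lay at a median distance of 1477 bp, against 452 bp for the other genes and 647 bp over the whole table. Of the members 5 (9.43%) overlapped another gene model, against 21.5% and 18.5%, and their levels are uncertain because no source used here says whether counting used strand. The genes with low but nonzero flower bud levels lay between, with a median span of 2278 bp, a distance of 975.5 bp and 13.0% overlapping. Adjacent gene models at 1 or more in both flower bud libraries were absent on both sides of 17 of the 53 members (32.1%), close to the 33.4% over the whole table and above the 24.7% of other genes at 1 or more in all 4 libraries. They were present on both sides of 8 members (15.1%), against 21.5% and 27.4%, with no test. The neighbours of ZS11A07G023900 averaged 104 and 119 in flower bud, beside 0 for the gene itself.

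Members lay side by side, or with 1 gene model between them, in 3 places. On chromosome A9, ZS11A09G033580 (27461508 to 27462316, minus strand) and ZS11A09G033590 (27467496 to 27468814, plus strand) were consecutive and divergent, 5179 bp apart. The former had 3.84 and 2.73 in seedling and 1.46 and 1.77 in silique, and the latter 2.64 and 9.28 in seedling and 1.14 and 1.58 in silique. Both were called lower in silique, with log2 fold changes of -1.43 (approximate SE 0.46, edgeR adjusted p = 0.0315) and -2.27 (approximate SE 0.67, edgeR adjusted p = 0.0218). These calls were lost in 7 and 5 of 16 alternatives, among them the fits without silique replicate 1 or without silique replicate 2 for both genes. The size of the change of ZS11A09G033590 depended on the seedling library, with a log2 fold change of -3.09 without seedling replicate 1, where the call held, and -1.30 without seedling replicate 2, where it was lost.

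On chromosome A10, ZS11A10G030240 (21423047 to 21424395, minus strand) and ZS11A10G030250 (21425756 to 21427460, plus strand) were also consecutive and divergent, 1360 bp apart, and only the first was called. The first had 1.09 and 1.09 in seedling and 3.41 and 4.14 in silique and was called higher (log2 fold change 1.44, approximate SE 0.48, edgeR adjusted p = 0.0370). That call was lost in 7 of 16 alternatives. The second had 1.81 and 2.18 in seedling and 2.43 and 1.38 in silique, with overlapping libraries and no call (log2 fold change -0.34, approximate SE 0.53, edgeR adjusted p = 0.642). The difference between the changes of the 2 genes was not tested.

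On chromosome C3, ZS11C03G047820 (31634515 to 31635970) and ZS11C03G047840 (31651901 to 31652990) lay on the plus strand, 15930 bp apart with 1 gene model between them. The former had 2.33 and 2.46 in seedling and 2.43 and 2.07 in silique, close to the values of its partner given above. The model between them had 0.979 and 0.546 in seedling, 0 and 0.197 in silique and 0 in flower bud, so that all 3 models in a row had no flower bud read. Whether these genes share reads as similar copies was not tested.

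The same rule gave other numbers for other tissue pairs. At 1 or more in both flower bud and both silique libraries and 0 in seedling there were 137 genes, and at 1 or more in both seedling and both flower bud libraries and 0 in silique there were 36. The 3 numbers share their libraries and differ in depth, and the differences between them were not tested.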

How the data were processed

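Per the labels' protocols, RNA was extracted with an RNeasy plant kit and libraries with Illumina's TruSeq RNA chemistry. The submitters' processing notes name the tools featureCounts, HISAT2, GATK, SAMtools and edgeR. For the genome build and settings, nothing is given in the sources used here. Whole-number counts per gene model were deposited in one table, per the file headers. It lists 65535 genes and ends inside chromosome C3, so 24 of the 77 members are not in it. Positions are those of its gene models, counted from 1, and a span runs from first to last base. The deposited normalized table holds a signal that the authors scaled by trimmed mean of M values (TMM), per the name of the file. Its values were whole multiples of 1 step per library (100% within 0.05 reads), and the recovered reads equalled the counts in 100% of 51324 shared genes. The 14211 genes of the count table outside the normalized table had 0 reads.

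Counts were tested with edgeR 4.0.16 in R 4.3.3 (TMM factors, filterByExpr with a minimum count of 10, glmQLFit and glmQLFTest) on all 6 libraries, with 3 residual degrees of freedom, a common biological coefficient of variation of 0.162 and adjustment over all genes tested. Both flower bud counts of every member were 0 by the rule, so a member's own spread came from the seedling and silique libraries only. Count table totals ran from 2538852 to 15448095. Approximate standard errors are the absolute log2 fold change over the square root of F. The script was tested on simulated data. CPM values were computed from the deposited counts with TMM library sizes. Alternatives used DESeq2 1.42.0, limma 3.58.1 on log2(normalized value + 1) or + 0.5, recovered reads, other factors, no filter, a replicate block, only the compared tissues, and each library left out. A fit on counts divided by 2 and rounded up was added after the data were examined. The p-values printed rest on undivided counts or reads. Python 3.11.15 with pandas 2.3.3 and NumPy 2.4.6 was used.

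The members, and the rules for the alternatives, were chosen with earlier results of these data known. Members named are those of the count table without overlap that had the 2 largest rises and falls between tissues with no overlap of libraries, the 3 highest minimum CPM per kb, the 2 smallest changes, the longest runs of neighbours, and the genes at the border of the rule.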

Additional observations from a re-analysis of the deposited data

How the results depend on the processing

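The number of members depended on both limits of the rule. It was 180, 26 and 4 with a minimum value of 0.5, 2 and 5, 143 with up to 3 flower bud reads, 141 with up to 2 (added after the data were examined) and 48 with only genes of the count table that overlap no other model. It ranged from 93 to 153 when 1 library was left out of the rule, with 144 and 153 without flower bud replicate 1 or 2. Members were lower in silique more often than higher in every fit tried. Recovered reads of all chromosomes, which cover more genes, gave 36 lower members, 8417 higher and 9382 lower genes in all. Leaving out 1 library gave 16 to 24 lower and 2 to 4 higher members (2 without silique replicate 1), and 4168 to 7187 higher and 4587 to 6310 lower genes in all. Limma on log2(normalized value + 1) and + 0.5 gave 10615 and 11964 higher genes, each of 73256 tested. The reported fit gave 5572 of 34296 tested, so these counts are not directly comparable. With a replicate block 3 members were higher and 23 lower. With counts divided by 2 and rounded up, 4 members were higher and 29 lower of 50 tested. The correlation of deviations between same-numbered libraries was between -0.0266 and 0.00383, so no shift shared by these libraries was seen. With 2 libraries per tissue this cannot show whether the numbers mark a shared source, and the labels do not say. The median log2 fold change of all genes was 0.02 in the reported fit, 0.11 and 0.17 with limma and 0.20 without seedling replicate 1.

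Named genes with small changes turned sign. ZS11UN2200 went to 0.23 and 0.28 with limma (pseudocounts 1 and 0.5), 0.0226 with the replicate block and -0.34 to 0.41 with 1 library left out. ZS11C03G047840 went to 0.26 and 0.33 with limma and -0.30 to 0.53 with 1 library left out. ZS11A05G012960 went to -0.18 with DESeq2, -0.0251 with the replicate block and -0.82 to 0.79 with 1 library left out, and ZS11A10G030250 to between -0.81 and 0.0167, the latter without silique replicate 2. Member calls fell most without a silique library, to 16 lower without either one, and were 24 lower and 4 higher without seedling replicate 2, the shallowest library.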
